A study of Mus musculus with 4 samples.

Results

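The mitochondrial SLC25 carriers are the family of transporters that move metabolites across the inner mitochondrial membrane. Their genes were taken from the PRO-seq table of mouse liver by symbol, as every gene named Slc25a followed by a number together with *Ucp1*, *Ucp2* and *Ucp3*, and where a symbol had several transcripts the transcript whose promoter-proximal value was highest on average was used. This gave 47 of the 20642 gene symbols in the table. Of these 47, 42 were active, out of 12705 active genes in all, where active means promoter-proximal reads in at least some library and more than 4 normalized reads per kb in the gene body on average. The other 5, *Slc25a31*, *Slc25a37*, *Slc25a41*, *Ucp1* and *Ucp3*, did not pass this filter and entered no test.

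PRO-seq (precision nuclear run-on sequencing) maps RNA polymerases that are engaged on DNA, by letting them add biotin-labelled nucleotides in isolated nuclei and sequencing the labelled RNA. The libraries came from livers of C57BL/6 mice on day 14 after birth, 2 from WT mice (WT1 and WT2) and 2 from *Hdac3* KO mice (KO1 and KO2), each made from the pooled nuclei of several mice. All mice, WT included, carried Alb-Cre, a Cre recombinase driven by the albumin promoter, which acts in hepatocytes. WT mice had intact *Hdac3* alleles (+/+), and KO mice had 2 floxed alleles (F/F) or a floxed and a null allele (F/-), so that cells that do not express albumin keep a working copy. HDAC3 is the histone deacetylase of the NCoR/SMRT corepressor complexes, and the comparison asks how its loss changes polymerase density at the start and along the body of genes.

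Between 16628518 (KO2) and 26190040 (WT2) reads were counted on transcripts, and in the order WT1, WT2, KO1 and KO2 the promoter-proximal share of the normalized reads was 10.3%, 9.38%, 13.6% and 17.0%. KO2 was thus both the shallowest library and the one with the largest promoter-proximal share. *Hdac3* itself had 665, 648, 609 and 582 normalized gene body reads, slightly lower in both KO libraries, and was not called (log2 fold change -0.14, SE 0.13, adjusted p = 0.413, limma with Benjamini-Hochberg adjustment), so the genotypes rest on the labels. Hepatocyte markers were high in every library, with a summed gene body density of 23667 and 26979 reads per kb in WT and 10569 and 10393 in KO. Of 7 such markers, 5 were called down in gene bodies, whereas 4 of 5 endothelial markers and 4 of 5 stellate cell markers were called up. Other cell types did not rise in the same way. Of 6 Kupffer and myeloid markers limma called 0 in gene bodies, with 2 higher at an unadjusted p under 0.05. All 4 erythroid markers were called down in gene bodies. Of the 2 active cholangiocyte markers, *Sox9* was called down in both regions. *Krt19* had a gene body log2 fold change of 0.83 without a call and was called up at its promoter (log2 fold change 1.33). Summed endothelial densities were 526 and 568 reads per kb in WT and 997 and 878 in KO, and stellate ones 70.4 and 81.8 in WT and 203 and 192 in KO. In bulk liver, fewer nuclei of a cell type and less transcription per nucleus cannot be told apart, and the part of these shifts in the changes described here was not tested.

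SLC25 proteins share a fold built from repeats of a short sequence and most exchange a solute of the matrix for a solute of the space outside the inner membrane. In liver they link the matrix to cytosolic pathways: ornithine and citrulline exchange and aspartate export serve the urea cycle, carnitine exchange serves fatty acid oxidation, and citrate export serves fatty acid synthesis. Uncoupling proteins form a branch of the family, of which UCP1 dissipates the proton gradient as heat in brown fat.

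The promoter-proximal value counts reads in a 50 bp window placed where reads are densest near the transcription start site (TSS), and the gene body value covers the transcript from 1 kb downstream of the TSS to its end. Values are given below as normalized reads in the order WT1, WT2, KO1 and KO2. A gene was called when its log2 fold change, KO over WT, was beyond 0.6 in either direction with an adjusted p below 0.05 in limma, fitted over all active genes on log2(normalized reads + 1). With 2 libraries per group, a permutation test of a single gene could not give a two-sided exact p below 0.33, so calls rest on the spread shared across genes.

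In gene bodies, the carriers were mostly lower in KO livers. Of the 42 active carriers, 14 were called down and 2 up, which is 33.3% and 4.76%, beside 11.4 percent of all active genes called down and 10.4 percent called up. A call down, that of *Slc25a21*, concerns a gene that passed the activity limit only through its WT libraries, and without it 13 of 41 were called down. At promoters the count ran the other way, with 8 carriers called up and 2 down, or 19.0% and 4.76%, beside 25.8 percent and 2.2 percent of all active genes. The median gene body log2 fold change was -0.42 over the carriers and -0.09 over all active genes, and the median promoter-proximal change was 0.39 over the carriers and 0.56 over all active genes. The promoter-proximal change was positive for 29 of the 42 carriers (69.0%, against 84.2% of all active genes) and the gene body change negative for 32 (76.2%, against 60.2%). Of the 42, 27 lay below the all-gene median in gene bodies and 30 of 42 below it at promoters. In gene bodies, both KO libraries lay below both WT libraries for 28 carriers and above them for 7, and the groups overlapped for the other 7, beside 42.8 percent and 27.6 percent of all active genes below and above. At promoters, both KO libraries lay above both WT libraries for 20 carriers and below them for 6, beside 61.9 percent and 6.72 percent of all active genes. The promoter-proximal calls depended on the scaling. When each region was scaled by its own median-of-ratios factors, the all-gene promoter-proximal median moved from 0.56 to about 0. Of the 42 carriers, 0 were then called up and 8 down, with a carrier median of -0.17. Of all 12705 active genes, 634 were called up and 942 down under this scaling. Several promoter-proximal changes are therefore also given below relative to the all-gene median.

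Across the regions, 22 carriers (52.4%) were called in at least 1 and 20 in neither, compared with 40.6% of all active genes called in at least 1. *Slc25a45* and *Slc25a24* rose in both regions and *Slc25a47* and *Slc25a15* fell in both, classes that held 7.06% and 1.94% of all active genes. Another 12 fell in the gene body with no promoter-proximal call, and 6 rose at the promoter with no gene body call, that is 28.6% and 14.3% of the carriers and 9.23% and 18.5% of all active genes. No carrier was called up at the promoter and down in the gene body, a combination seen in 30 of the 12705 active genes.

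**Figure D1:**
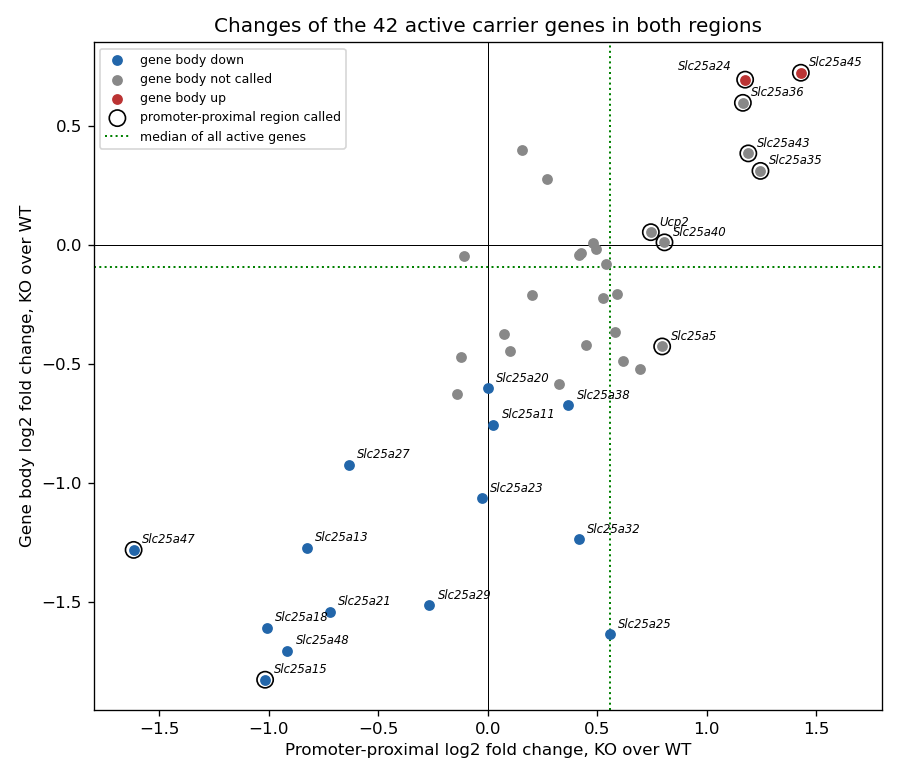
Log2 fold change, KO over WT, of promoter-proximal (x axis) and gene body (y axis) normalized reads for the 42 active carriers, colored by gene body call and ringed where the promoter-proximal region was called. Dotted lines mark the medians of all 12705 active genes, 0.56 at promoters and -0.09 in gene bodies, and the 14 carriers called down in gene bodies lie in the lower part of the plot, only *Slc25a47* and *Slc25a15* of them with a promoter-proximal call.

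The sequences before the start sites are shown for 4 carriers that fell in the gene body and for *Slc25a45*, which rose in both regions. RefSeq promoters (GRCm38.p6, the mm10 build) were found for 37 of the 47 carriers, and the 150 bases before the start are printed 5′ to 3′ on the strand of the gene, with capitals marking matches to the motifs searched. *Slc25a47* (chr12:108850979-108851128, + strand) and *Slc25a29* (chr12:108835877-108836026, - strand) lie head to head on chromosome 12, with 13956 bp between their annotated spans, and both fell. *Slc25a25* (chr2:32451471-32451620, - strand), *Slc25a13* (chr6:6217174-6217323, - strand) and *Slc25a45* (chr19:5877672-5877821, + strand) lie on other chromosomes. In the table, the transcript of *Slc25a25* starts 25 bp, that of *Slc25a29* 7 bp and that of *Slc25a45* 5 bp from the RefSeq start used here.
Slc25a47: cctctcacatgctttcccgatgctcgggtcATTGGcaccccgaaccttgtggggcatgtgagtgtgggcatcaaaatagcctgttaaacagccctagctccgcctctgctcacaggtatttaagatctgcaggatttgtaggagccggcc
Slc25a29: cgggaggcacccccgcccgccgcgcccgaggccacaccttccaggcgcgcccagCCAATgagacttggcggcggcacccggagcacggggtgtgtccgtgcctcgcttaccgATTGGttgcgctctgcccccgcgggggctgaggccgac
Slc25a25: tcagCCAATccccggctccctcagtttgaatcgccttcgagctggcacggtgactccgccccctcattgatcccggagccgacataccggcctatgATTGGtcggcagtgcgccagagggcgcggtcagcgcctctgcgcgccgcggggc
Slc25a13: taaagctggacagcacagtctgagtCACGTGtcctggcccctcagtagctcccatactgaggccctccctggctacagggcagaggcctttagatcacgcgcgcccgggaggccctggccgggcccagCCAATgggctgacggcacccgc
Slc25a45: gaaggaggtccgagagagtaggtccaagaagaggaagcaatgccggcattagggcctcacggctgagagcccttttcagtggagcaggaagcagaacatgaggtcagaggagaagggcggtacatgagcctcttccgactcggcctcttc

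Capitals mark a CCAAT box (CCAAT, or ATTGG for the other strand) in the first 4 sequences, with 2 matches each in *Slc25a29* and *Slc25a25*, and an E-box (CACGTG) in *Slc25a13*. *Slc25a45* held none of the motifs searched. A CCAAT box was present in 13 of the 37 carrier promoters (35.1%) and in 24.5% of the 32851 RefSeq promoters of the same length. Among the other carriers called down in gene bodies, *Slc25a11* held it, but *Slc25a15*, *Slc25a18*, *Slc25a20*, *Slc25a21*, *Slc25a23*, *Slc25a38* and *Slc25a48* did not. The box was also present in *Slc25a1*, *Slc25a4*, *Slc25a28*, *Slc25a30*, *Slc25a33*, *Slc25a34*, *Slc25a36* and *Slc25a42*, which had no gene body call. A link between the box and the calls was not tested. An E-box was present in 3 carrier promoters (8.11%, against 4.30% of all), a TATA box (TATAAA or TTTATA) in 1, that of *Slc25a18* (2.70% against 7.57%), and an NRF1 motif (GCGCATGC or GCATGCGC) in 1, that of *Slc25a31* (2.70% against 1.82%). The CRE (TGACGTCA), the extended ERR half-site (TCAAGGTCA or TGACCTTGA) and the D-box (TTATGTAA or TTACATAA) were found in 0 of 37, and in 1.36%, 0.18% and 0.499% of all promoters. The carrier promoters held a median of 11 CpG dinucleotides and 64% G and C in these 150 bases, compared with 4 and 54% over all promoters. The sets compared are unlike, since 1 start was taken per carrier, while the 32851 promoters include several starts of some genes and genes not active here. These matches describe letters in the window and say nothing of a factor.

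In WT liver, the carriers ranged from near the bottom to near the top of the active genes when gene body reads were divided by length. *Slc25a47*, a carrier expressed mainly in hepatocytes, had the highest density, 1110 ± 119 reads per kb (SD, n = 2), higher than 99.7% of active genes. *Ucp2*, an uncoupling protein relative present in many cell types, followed with 752 ± 62.7, and the glutamate carrier gene *Slc25a22* with 504 ± 126. *Slc25a25* (448 ± 156) and *Slc25a22* overlapped between libraries, as did neighbours further down such as *Slc25a23* (237 ± 9.63) and *Slc25a2* (224 ± 30.7). The top 8 carriers, down to *Slc25a2*, lay over the 95th percentile of active genes. At the other end, *Slc25a43* (4.52 ± 0.18) and *Slc25a35* (4.74 ± 0.013) lay just above the activity limit.

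The order changed in KO livers. *Ucp2* was first with 780 ± 29.2 reads per kb and *Slc25a47* second with 456 ± 15.0. *Slc25a15* went from the sixth highest carrier to rank 15 and *Slc25a45* from the thirteenth to rank 5. Summed over the 47 carriers, gene body density was 5434 and 5922 reads per kb in WT and 3793 and 3817 in KO. Carriers called down lay both above and below the median WT density of active genes, *Slc25a29*, *Slc25a48* and *Slc25a27* being among those below it. *Slc25a21* lay below it too, but passed the activity limit only through its WT libraries.

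**Figure D2:**
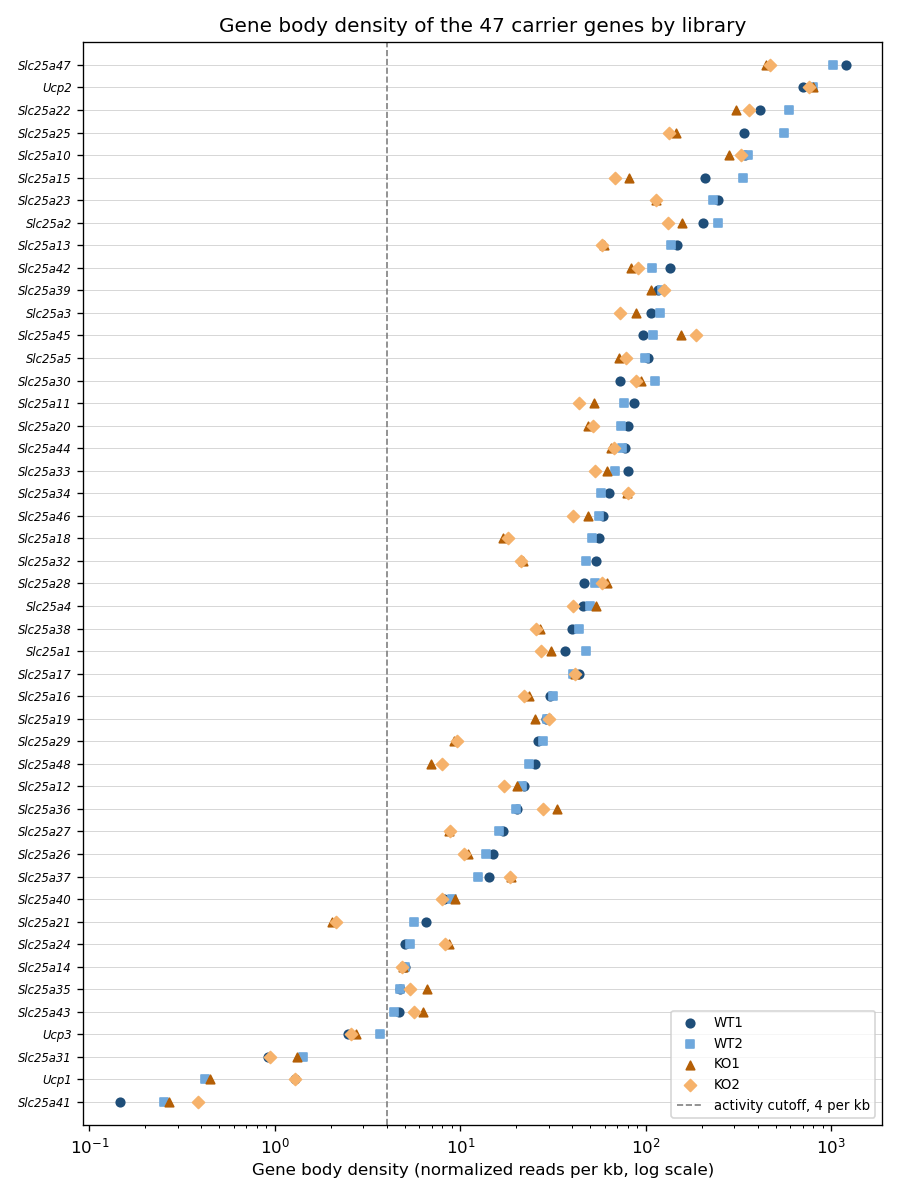
Gene body density in normalized reads per kb (log axis) of all 47 carriers in each of the 4 libraries, ordered by the WT mean. *Slc25a47* was highest in WT at 1110 and *Ucp2* highest in KO at 780. The dashed line marks the activity limit of 4 reads per kb, and *Ucp3*, *Slc25a31*, *Ucp1* and *Slc25a41* lie below it. Both KO libraries of *Slc25a21*, at 2.03 and 2.13, lie below it as well.

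Amino acid carriers held the largest number of falling genes, 5 of 9 called down in gene bodies, with a median log2 fold change of -0.67. The genes of ornithine and aspartate transport were among them. *Slc25a15*, the ornithine carrier of the urea cycle, had 4580.1, 7411, 1781 and 1512 gene body reads, and the KO libraries lay well below both WT libraries, which themselves differed. It fell 3.55-fold (log2 fold change -1.83, SE 0.15, adjusted p = 1.83e-09, limma). Its promoter-proximal reads, 585, 873, 286 and 434, also fell (log2 fold change -1.02, SE 0.30, adjusted p = 0.00555), which is -1.58 relative to the all-gene median. This promoter call was lost without WT2, without KO1 or without KO2, with adjusted p of 0.336, 0.0896 and 0.0511.

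*Slc25a13* encodes citrin, the aspartate/glutamate carrier of liver, which delivers aspartate to the urea cycle and takes part in the malate-aspartate shuttle. It had 25759.9, 23929, 10412 and 10160.4 gene body reads and fell 2.41-fold (log2 fold change -1.27, SE 0.11, adjusted p = 4.92e-09). Its paralog *Slc25a12*, the form of heart and brain, had 2022, 1980, 1863 and 1584 reads and was not called (log2 fold change -0.22, SE 0.12, adjusted p = 0.138). Both KO libraries of *Slc25a12* were below both WT libraries, but by little. The difference between the changes of these paralogs was not tested.

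*Slc25a18*, a mitochondrial glutamate carrier, had 1075, 980, 326 and 346 gene body reads, the KO libraries being far below both WT libraries. It fell 3.05-fold (log2 fold change -1.61, SE 0.13, adjusted p = 1.65e-09). *Slc25a22*, the other glutamate carrier and the more densely transcribed of the pair, had 2956, 4226, 2173 and 2555 reads. Its KO libraries were below both WT libraries, but its log2 fold change of -0.58 (SE 0.14, adjusted p = 0.00129) did not reach the fold limit and it was not called.

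*Slc25a29*, a carrier of basic amino acids, had 236, 251, 82.7 and 86.5 gene body reads and fell 2.86-fold (log2 fold change -1.51, SE 0.19, adjusted p = 8.78e-07). *Slc25a38*, the glycine carrier needed for heme synthesis, had 519, 565, 349 and 329 reads and fell by 0.67 on the log2 scale (SE 0.14, adjusted p = 0.00053). The groups did not overlap for either gene. *Slc25a2*, an ornithine carrier whose gene body spans only 346 bp in this table, had 70.0, 85, 54.1 and 45.5 reads and was not called (log2 fold change -0.63, SE 0.26, adjusted p = 0.0573). *Slc25a44*, a carrier of branched-chain amino acids, had a log2 fold change of -0.20 (adjusted p = 0.187).

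Among the 4 carriers of di- and tricarboxylates and keto acids, 2 were called down in gene bodies, and for *Slc25a21* the activity filter itself favored this direction. *Slc25a21*, the oxodicarboxylate carrier, had 3174, 2715, 982 and 1032 gene body reads (log2 fold change -1.54, SE 0.12, adjusted p = 4.2e-10). Its density was 6.56 and 5.61 reads per kb in WT and 2.03 and 2.13 in KO, so it passed the activity limit of 4 only through the group where it was high, and it was not tested when activity was required in every library. *Slc25a11*, the oxoglutarate carrier that works with citrin in the malate-aspartate shuttle, had 174, 154, 106 and 88.1 reads and fell by 0.76 on the log2 scale (SE 0.20, adjusted p = 0.00458). Without KO2 the call of *Slc25a11* was lost (adjusted p = 0.0965). *Slc25a10*, the dicarboxylate carrier and the fifth in WT density, had 2858, 2965, 2341 and 2712 reads and was not called (log2 fold change -0.21, SE 0.11, adjusted p = 0.147). *Slc25a1*, the citrate carrier, had a log2 fold change of -0.52 (SE 0.25, adjusted p = 0.103).

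The carriers of phosphate, adenine nucleotides and CoA numbered 11, of which 9 were active, with 2 called down and 1 up in gene bodies. Calls among the ATP-Mg/phosphate carriers went both ways. *Slc25a25* had 12159, 20090, 5242 and 4822 gene body reads and fell 3.11-fold (log2 fold change -1.64, SE 0.15, adjusted p = 1.07e-08), although WT2 was well above WT1. *Slc25a23* had 3701, 3495, 1725 and 1713 reads and fell 2.09-fold (log2 fold change -1.06, SE 0.11, adjusted p = 3.73e-08). Within each group its libraries were close to each other. *Slc25a24*, the third of these carriers, had 223, 238, 383 and 364 reads and rose 1.62-fold (log2 fold change 0.70, SE 0.16, adjusted p = 0.000913). Its promoter-proximal reads, 21.8, 30, 48.8 and 71.4, rose as well (log2 fold change 1.17, SE 0.39, adjusted p = 0.0167). *Slc25a41*, a relative that lacks the calcium-binding domain of these carriers and adjoins *Slc25a23* on chromosome 17 with a gap of 2056 bp between them, was at 3.04 normalized gene body reads or fewer in every library.

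The adenine nucleotide translocators exchange ADP for ATP across the inner membrane. *Slc25a5* had 220.3, 213, 154 and 169 gene body reads (log2 fold change -0.43, adjusted p = 0.0601), with both KO libraries below both WT libraries. At its promoter it had 246, 231, 392 and 437 reads and rose (log2 fold change 0.80, SE 0.31, adjusted p = 0.038). *Slc25a4* had 122, 133, 143 and 108 gene body reads, with overlapping groups (log2 fold change -0.03, adjusted p = 0.916). *Slc25a31*, known from testis, was at 23 gene body reads or fewer in every library. These translocators are close in sequence and were counted after removal of reads of low mapping quality, so that reads shared between them or with copies elsewhere may be missing. *Slc25a3*, the phosphate carrier, had a log2 fold change of -0.49 (SE 0.14, adjusted p = 0.00714) and *Slc25a42*, a CoA carrier, of -0.47 (SE 0.12, adjusted p = 0.00296), both under the fold limit.

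Carriers of carnitine, cofactors, glutathione and pyrimidine nucleotides had 2 of 8 called down in gene bodies. *Slc25a20*, the carnitine/acylcarnitine carrier of fatty acid oxidation, had 1716, 1585, 1054 and 1119 gene body reads, and its log2 fold change of -0.60 (SE 0.12, adjusted p = 0.000189) lay just past the fold limit. Its call was lost without WT1 or without KO1, where the log2 fold change was -0.55 and -0.56. *Slc25a32*, linked to folate and FAD transport, had 939, 838, 379.8 and 372 reads and fell 2.36-fold (log2 fold change -1.24, SE 0.13, adjusted p = 1e-07). Its promoter-proximal log2 fold change was 0.42, below the all-gene median.

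*Slc25a36* and *Slc25a33* carry pyrimidine nucleotides. *Slc25a36* had 667, 656, 1095 and 917 gene body reads and a log2 fold change of 0.60 that lay at the fold limit without passing it (SE 0.13, adjusted p = 0.000622). At its promoter, with 16.1, 22, 41.4 and 45.5 reads, it rose (log2 fold change 1.16, SE 0.41, adjusted p = 0.0229). *Slc25a33* had a gene body log2 fold change of -0.37 (adjusted p = 0.0148). *Slc25a40*, a carrier of glutathione, had 225, 215, 347 and 428 promoter-proximal reads and rose there (log2 fold change 0.81, SE 0.31, adjusted p = 0.0367), whereas its gene body groups overlapped (log2 fold change 0.01). Its paralog *Slc25a39* had a gene body log2 fold change of -0.05 and a promoter-proximal one of -0.11.

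Of the uncoupling proteins and their relatives, 4 of 6 were active, and 1 was called down in gene bodies. *Ucp2* had 5539, 6233, 6267 and 5944 gene body reads, with overlapping groups (log2 fold change 0.05, SE 0.11, adjusted p = 0.722). Its promoter-proximal reads, 1354, 1348, 1801 and 2845, rose 1.68-fold (log2 fold change 0.74, SE 0.27, adjusted p = 0.0296), which was 0.18 above the all-gene median, and KO2 was far above KO1. *Slc25a27*, also called UCP4, had 407, 391, 209 and 211 gene body reads and fell by 0.92 on the log2 scale (SE 0.16, adjusted p = 4.03e-05). *Slc25a14* (UCP5) and *Slc25a30*, a kidney-enriched relative, had gene body log2 fold changes of -0.04 and 0.01. *Ucp1* and *Ucp3* were low in every library, at most 9.18 and 46 gene body reads. *Ucp3* lies 6904 bp from *Ucp2* on the same strand of chromosome 7, and of the 5 brown fat markers *Cidea*, *Elovl3*, *Dio2* and *Adipoq* were not active. The other marker, *Plin5*, a lipid droplet protein that hepatocytes also express, had 364, 443, 119 and 187 gene body reads and was called down (log2 fold change -1.42, adjusted p = 2.52e-06).

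The mitoferrins import iron for heme and iron-sulfur cluster synthesis. *Slc25a28* (mitoferrin 2) had 466, 534, 624 and 588 gene body reads, both KO libraries above both WT libraries, and was not called (log2 fold change 0.28, SE 0.14, adjusted p = 0.112). *Slc25a37* (mitoferrin 1), the form of developing red cells, was listed at 0 at the promoter in every library and so counted as not active, although its gene body held 605, 528, 788 and 777 reads. In a fit over all genes without the activity filter, its log2 fold change was 0.47 (adjusted p = 0.09). Erythroid markers moved the opposite way, 4 of 4 in the table called down, with summed densities of 99.3 and 116 reads per kb in WT and 40.2 and 42.5 in KO.

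The 7 active carriers without a settled substrate or with other roles had calls in both directions, with 2 called down and 1 up in gene bodies and 3 up and 1 down at promoters. *Slc25a47* had 5600.1, 4809, 2086 and 2185 gene body reads and fell 2.43-fold (log2 fold change -1.28, SE 0.11, adjusted p = 3.44e-09). Its promoter-proximal reads, 521, 562, 171 and 181, fell as well (log2 fold change -1.62, SE 0.31, adjusted p = 1.08e-05), which is -2.18 relative to the all-gene median and the lowest promoter-proximal change of the 42. *Slc25a48*, a choline transporter, had 833, 771, 230.2 and 261 gene body reads and fell 3.26-fold (log2 fold change -1.70, SE 0.14, adjusted p = 2.03e-09).

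*Slc25a45* was the carrier with the highest change in both regions. It had 610.4, 685, 975 and 1174 gene body reads and rose 1.65-fold (log2 fold change 0.73, SE 0.13, adjusted p = 9.36e-05). At its promoter it had 55.1, 48, 76.4 and 257 reads (log2 fold change 1.43, SE 0.35, adjusted p = 0.00101), and KO2 carried most of this rise. Without KO2 neither call was made, with log2 fold changes of 0.59 in the gene body and 0.56 at the promoter.

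Low promoter-proximal counts lay behind the other promoter calls of this group. *Slc25a35* had 21.8, 34, 57.3 and 75.9 reads (log2 fold change 1.25, SE 0.39, adjusted p = 0.01). *Slc25a43*, which lies 18289 bp from *Slc25a5* on the same strand of the X chromosome, had 8.03, 14, 28.6 and 22.8 reads (log2 fold change 1.19, SE 0.44, adjusted p = 0.0312). Neither gene was called in the gene body. *Slc25a34* had a gene body log2 fold change of 0.40 and *Slc25a46*, which acts in mitochondrial dynamics at the outer membrane, of -0.36.

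**Figure D3:**
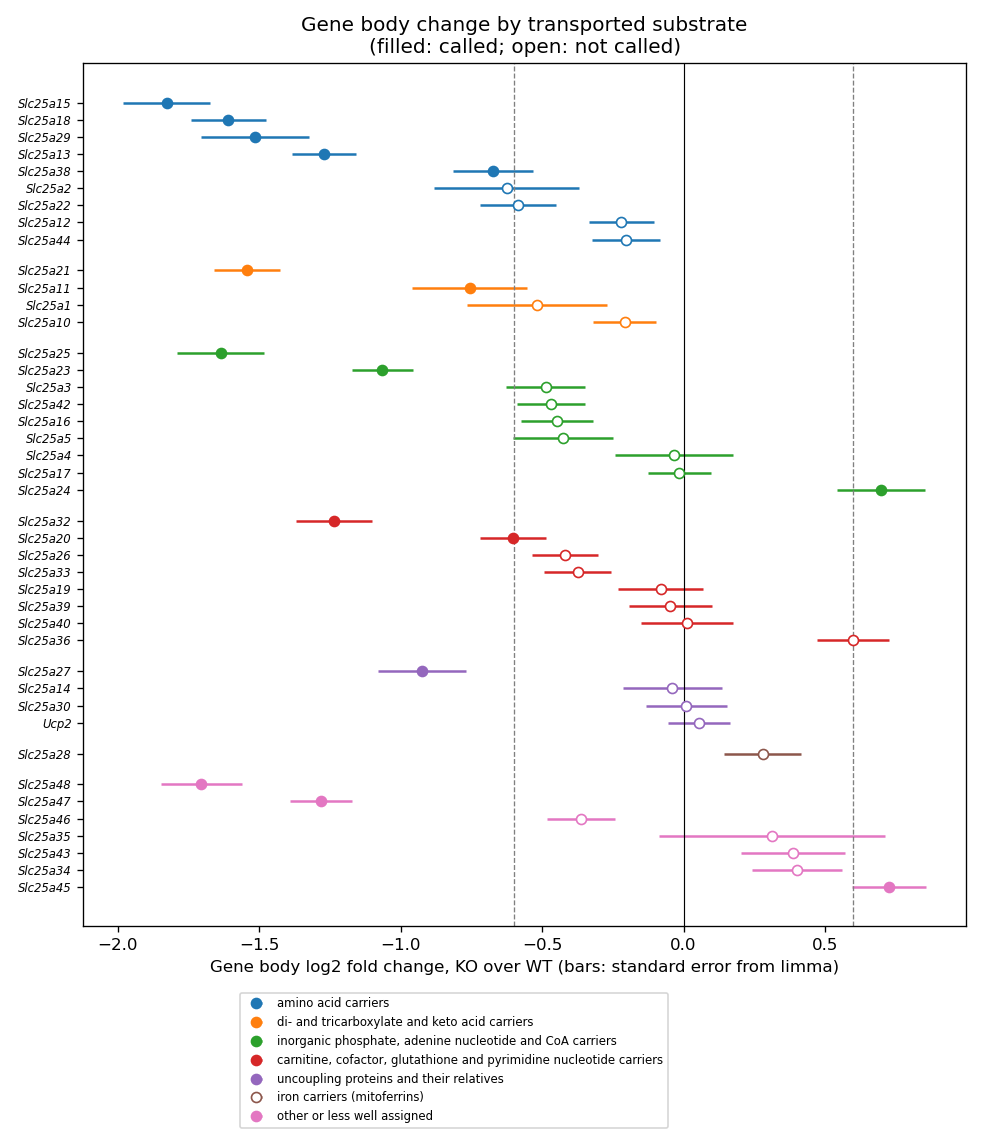
Gene body log2 fold change, KO over WT, of the 42 active carriers grouped by transported substrate, with bars for the limma standard error and filled points for called genes. Dashed lines mark the fold limits of -0.6 and 0.6. The amino acid carriers all lie below 0, 5 of 9 past the limit and the test, while *Slc25a24* and *Slc25a45* are the 2 carriers called up.

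The 8 promoter calls up were lost in the fits without WT1, without WT2 and without KO2. Promoter calls up also became far fewer over all active genes in these fits, so the loss was not particular to the carriers. Without KO1, 6 of the 8 were called, *Slc25a43* and *Slc25a36* were not (adjusted p = 0.119 and 0.0621), and *Slc25a25* was called in addition. In the same 4 fits the gene body counts were 14 to 15 down and 2 to 3 up. Of the gene body calls, only those of *Slc25a20*, *Slc25a45* and *Slc25a11* were lost in any of the 4.

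The pausing index divides the read density at the promoter by that in the gene body. It was called up for 5 carriers, beside 12.4 percent of all active genes, and limma called it down for 0, with 0 also at an unadjusted p under 0.05, beside 0.519 percent. Its change was positive for 38 of the 42 (90.5%, against 88.8% of all active genes), with a median log2 change of 0.70 over the carriers and 0.61 over all active genes. *Slc25a25* had the largest change, with indices of 10.7, 5.91, 27.7 and 48.0 (log2 fold change 2.19, SE 0.44, adjusted p = 0.00018). For *Slc25a32* the indices were 36.9, 32.6, 92.0 and 130.2 (log2 fold change 1.65, SE 0.40, adjusted p = 0.00324). Together with *Slc25a29* (log2 fold change 1.25, SE 0.37, adjusted p = 0.016), these were the 3 whose gene body was called down while the promoter was not. *Slc25a5*, at 48.0, 46.7, 110.0 and 112, was called up at the promoter as well (log2 fold change 1.22, SE 0.40, adjusted p = 0.0292). *Slc25a1*, at 62.2, 45.3, 117 and 132, was called in neither region alone (log2 fold change 1.21, SE 0.39, adjusted p = 0.0291). These counts were unstable, for the carriers as for all active genes. Region-wise scaling gave 0 carriers called up, beside 6 (median-of-ratios) and 8 (TMM) of all 12705 active genes. With a library left out, the counts of carriers and of all active genes fell or rose together.

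Genes that work beside the carriers were read from the same fit. Of 46 active partner genes in 7 lists, 15 were called down in gene bodies, beside 11.4 percent of all active genes. By limma 0 were called up, 2 were higher at an unadjusted p under 0.05, and edgeR and DESeq2 also called 0 up, beside 10.4 percent of all active genes. At promoters, 5 were called up and 4 down, beside 25.8 percent and 2.2 percent of all active genes.

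The ornithine and urea cycle, which *Slc25a15* and *Slc25a13* supply, fell throughout, 6 of 6 genes called down. *Ass1*, which joins citrulline and aspartate, had 84023, 94440, 18224 and 16270.1 gene body reads (log2 fold change -2.37, SE 0.13, adjusted p = 4.91e-12). *Asl*, which cleaves argininosuccinate, fell by 1.66 on the log2 scale (SE 0.11, adjusted p = 7.26e-11). *Arg1*, the arginase of hepatocytes, fell by 1.51 (SE 0.11, adjusted p = 4.54e-10) and *Otc*, which uses the ornithine that *Slc25a15* imports, fell by 1.44 (SE 0.13, adjusted p = 4.35e-09). At promoters, *Ass1* and *Arg1* were called down, with log2 fold changes of -1.85 and -1.14.

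In the malate-aspartate shuttle and related steps, 3 of 6 genes fell. *Got1*, the cytosolic aspartate aminotransferase, had 16909, 19473, 5296 and 3589 gene body reads (log2 fold change -2.06, SE 0.14, adjusted p = 1.07e-10), and it fell at the promoter too (log2 fold change -1.48, SE 0.30, adjusted p = 4.36e-05). *Got2*, its mitochondrial counterpart, fell by 1.07 (SE 0.11, adjusted p = 5.99e-08) and *Mdh1*, the cytosolic malate dehydrogenase, fell by 0.996 (SE 0.12, adjusted p = 7.06e-07) on the log2 scale. Of the carriers of the same shuttle, *Slc25a13* and *Slc25a11* fell and *Slc25a12* was not called.

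In the carnitine shuttle, 2 of 5 genes fell in the gene body. *Crot*, a peroxisomal carnitine acyltransferase, fell by 0.89 (SE 0.12, adjusted p = 2.17e-06) and *Cpt1a*, the rate-limiting enzyme of fatty acid entry, fell by 0.77 (SE 0.11, adjusted p = 5.77e-06) on the log2 scale. *Cpt2*, the inner membrane enzyme, and *Slc22a5*, a carnitine importer of the plasma membrane, were not called in the gene body and were called up at the promoter (log2 fold change 0.86 and 0.83). In citrate formation and use, where *Slc25a1* acts, limma, edgeR and DESeq2 called 0 of 6 gene bodies, and at an unadjusted p under 0.05 in limma 3 were lower and 1 higher. At its promoter *Cs*, citrate synthase, rose (log2 fold change 0.97, SE 0.32, adjusted p = 0.0175).

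For iron-sulfur cluster and heme synthesis, limma, edgeR and DESeq2 called 0 of the 6 genes read in the gene body, and 4 were lower at an unadjusted p under 0.05 in limma. *Nfs1*, the cysteine desulfurase, had a gene body log2 fold change of -0.50 without a call and was called up at the promoter (log2 fold change 1.05, SE 0.31, adjusted p = 0.00603). Among proteins that import carriers into the inner membrane, limma called 1 of 11 down, beside 11.4 percent of all active genes. This was *Timm10*, a chaperone of the intermembrane space (log2 fold change -0.82, SE 0.25, adjusted p = 0.0128). Of the same 11, edgeR called 2 down and DESeq2 0. *Timm22*, the channel of carrier import, was called up at the promoter (log2 fold change 1.06, SE 0.33, adjusted p = 0.0105).

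Regulators of mitochondrial genes had 3 of 6 called down in the gene body. *Ppargc1a*, the coactivator PGC-1alpha, had 7414, 7199, 1770.5 and 1351 reads (log2 fold change -2.24, SE 0.12, adjusted p = 3.73e-12), and its promoter-proximal reads fell as well (log2 fold change -1.26, SE 0.33, adjusted p = 0.00237). *Ppara*, a nuclear receptor of fatty acid oxidation, fell by 1.07 (SE 0.12, adjusted p = 1.57e-07) and *Ppargc1b*, the related coactivator, fell by 0.70 (SE 0.11, adjusted p = 1.65e-05) on the log2 scale.

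**Figure D4:**
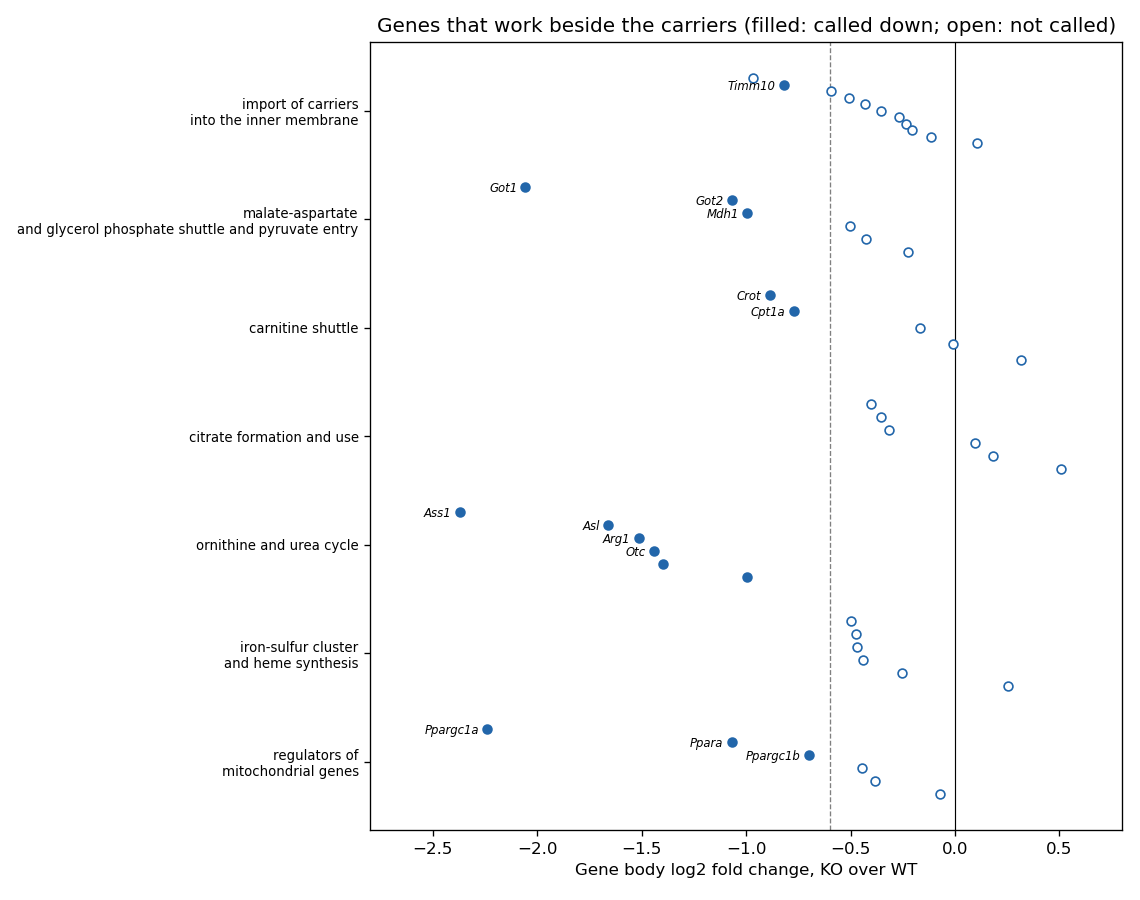
Gene body log2 fold change, KO over WT, of the 46 active partner genes in 7 lists (rows), with filled points for genes called down, at most 4 of them named per list, and open points for genes not called. All 6 genes of the ornithine and urea cycle are filled, from *Ass1* at -2.37, and the citrate and iron-sulfur lists have no filled point.

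Active enhancers were listed near some of the carriers. The deposited list holds 2282 intergenic enhancers called on the reads of all 4 libraries together, with no values per library, so that no change in KO can be read from it. Of these, 11 had a carrier within 50 kb, 7 carriers in all, and 6 had a carrier as the closest gene. Carriers make up 42 of the 12705 active genes, and whether any enhancer count given here differs from that of other genes was not tested. *Slc25a30* was the closest gene of 4 enhancers, all upstream of its start, at distances of 5014, 9951, 14951 and 20445 bp. *Slc25a33* had a longer enhancer region of 13829 bp at a distance of 15317 bp, with 4 centers of which 2 are in FANTOM5, and *Slc25a38* had an enhancer at 36335 bp. An enhancer region with 2 centers, both in FANTOM5, lay within 50 kb of *Slc25a25*, with *Fam102a* as its closest gene. By chromatin interactions recorded in 4DGenome, 107 enhancers were linked to 36 carriers. Of the 3 carriers closest to an enhancer, *Slc25a38* was called down in the gene body and *Slc25a30* and *Slc25a33* were not called.

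Several carriers overlap genes on the opposite strand in the annotation, and PRO-seq reads keep the strand. Among the called genes, *Slc25a25* overlaps the protein-coding *Naif1* by 1014 bp, *Slc25a23* overlaps *Crb3* by 805 bp and *Slc25a11* overlaps *Rnf167* by 297 bp. *Slc25a21* overlaps *Pax9* by 189 bp and *Slc25a35* overlaps *Rangrf* by 33 bp. Antisense genes overlap *Slc25a23* (*Gm17168*, 3433 bp) and *Slc25a36* (*Gm16185*, 3285 bp). Overlaps on the same strand, which strand cannot separate, include *Slc25a43* with *Gm23613* (87 bp) and *Slc25a37*, not active, with *Gm20236* (4540 bp).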

How the data were processed

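The carriers, their substrate groups, the partner lists and the marker lists were chosen with earlier results of these data known. The authors trimmed reads with cutadapt, used Bowtie2 to map them to mm10, dropped ribosomal and poorly mapped reads and took counts per region with NRSA. The WT2 column holds these counts as deposited, its factor being 1. The columns of WT1, KO1 and KO2 hold normalized signal as deposited, in which the authors had scaled the counts of each library by 1 factor (1.15 for WT1, 1.06 for KO1 and 1.52 for KO2). Dividing by the factors gave whole reads for 100% of the 41640 values per library, within a relative tolerance of 0.001. Densities are deposited by the authors as signal per bp.

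Log2(normalized reads + 1) was compared with limma 3.58.1 (trend, empirical Bayes) under R 4.3.3. Adjusted p-values (Benjamini-Hochberg) cover 12705 genes, and fold changes are on that scale, which understates changes of low genes. The pausing index was tested likewise on log2 ratios, in place of the stratified test of the study. The same test was tried on the recovered reads with edgeR 4.0.16, which called 1329 gene bodies up and 1454 down and 3251 promoters up and 265 down, and with DESeq2 1.42.0. Other alternatives changed the pseudocount (0.1 and 10), filter, scaling, transcript choice and fold limit, added a replicate block, or left out each library. WT and KO libraries share replicate numbers, but deviations of same-numbered libraries correlated at -0.105 at promoters and 0.0189 in gene bodies, so they were not treated as pairs. The procedure was tested on simulated data. Replicates are pools of nuclei, and variation among individual mice is not visible. The p-values rest on a spread between pools that limma shares across genes, and not on the spread of each gene alone. *Slc25a15* and *Slc25a25*, whose WT libraries differed, had gene body adjusted p of 1.84e-06 and 2.16e-05 in DESeq2.

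Every carrier could be named. Carriers called in either region are given with values in every library, as are the 3 uncalled ones with the highest WT density. Of each partner list, at most 4 genes called in either region are named, by the size of their gene body change. An item of the partner lists is not reported here. *Hdac3* checks the labels. The neighbouring and overlapping genes, *Fam102a*, the other uncalled carriers given by their values and the brown fat markers were added after values were seen, or name positions only. Spans and promoters are from RefSeq (GRCm38.p6) and strands from GENCODE. Plots were drawn with matplotlib 3.10.9.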

Additional observations from a re-analysis of the deposited data

How the results depend on the processing

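The 14 gene body calls down and 2 up were within 1.5 times of these counts under other pseudocounts, scalings, tools and transcripts, under the block and with each library left out (14 to 15 down, 2 to 3 up). Without the activity filter they were 9 and 1, and with no limit on the fold 4 carriers were called up. No call reversed under any alternative run. Carriers without a call in a region did change sign there, 17 of 42 at promoters and 4 to 5 in gene bodies under the region-wise scalings, the latter all with a change near 0. Besides the leave-one-out fits, *Slc25a20* lost its call with a pseudocount of 10, under the 3 other scalings and without the filter, and *Slc25a38* under the scalings and without the filter. Without the filter, where all genes of the table share the fit, *Slc25a15* (adjusted p = 0.083), *Slc25a45* (0.0917), *Slc25a25* (0.095) and *Slc25a11* (0.104, limma) lost theirs too. The cause was not tested.

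Partner genes called down in gene bodies were 6 without the filter and 29 with no limit on the fold, where 1 was called up. With a library left out, 0 to 1 were called up. The carrier gene body median was -0.340 with median-of-ratios scaling (within regions or from gene bodies), -0.343 with TMM, and -0.460 to -0.340 with a library left out. Without the filter, 0 of all 20642 genes were called at promoters in either direction, so the 0 carriers and 0 partner genes called there say nothing of them. Carriers called up at promoters were 0 with median-of-ratios within each region, 0 with TMM and 4 with DESeq2. Of all 12705 active genes, 634, 635 and 2650 were called up in these fits. Carriers called down there were 8 under both region-wise scalings, beside 942 and 949 of all active genes. With a library left out, promoter counts moved for the carriers and for all active genes. The promoter-proximal median of the carriers was -0.167 and -0.168 under the 2 region-wise scalings, where the all-gene median was -0.001 and -0.002. Partner genes called up and down at promoters were 0 and 0 without the filter, 0 and 13 with median-of-ratios within regions, 0 and 14 with TMM, and 0 to 7 and 1 to 4 with a library left out. Pausing index calls up were 12 with a pseudocount of 10, beside 2343 of all 12705 active genes. They were 0 without the filter, where 0 of 18353 genes were called, so this says nothing of the carriers. Under both region-wise scalings they were 0 as well, beside 6 and 8 of all active genes.

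With a replicate block, 3 carriers and 2 partner genes were called up at promoters and 2 carriers in the pausing index, and no gene body call was lost. There are 2 pairs only, which share no more than a number. With the crossed pairing as block, chosen after seeing the data, 4 carriers were called down and 11 partner genes up at promoters and 16 carriers up in the pausing index. Where a fit left out a library, the lone library of its group was assumed to vary like the other group. At the shallowest library, 1 read is worth 1.52 normalized reads, which limits the low promoter-proximal values.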
